A study of Chlamydomonas reinhardtii with 4 samples.

Results

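The narrowest H3K27ac regions that 4 Chlamydomonas reinhardtii libraries share are short, weak patches of the mark, and many of them sit within 1 kb of another peak region. Peaks of the 4 deposited lists that overlapped by at least 1 bp were joined into 15521 regions. Of these, 13909 lay on the 17 numbered chromosomes and held exactly 1 peak from each list. The 695 members are the 5% of those regions with the lowest mean of the 4 peak widths. They were chosen by their measured width, so width, and the fold enrichment and −log10 q that come from the same peaks, are given as descriptions with no test.

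Chlamydomonas reinhardtii is a single-celled green alga whose vegetative cells are haploid and belong to mating type mt+ or mt−. The 4 libraries are a DNMT1 knockout (called dnmt1) and a wild type (WT) in strain CC-5155, which is mt+, and the same genotypes in strain CC-5325, which is mt−. All cells were in the vegetative stage and were grown in Tris-acetate-phosphate medium under continuous light. The same anti-H3K27ac antibody from Abcam was named for each library. There was 1 library per group, so no comparison between groups has a replicate check and no p-value is given. Strain and mating type cannot be told apart. How the knockouts were made, and from how many clones, is not given in the sources used here.

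H3K27ac is the acetylation of histone H3 at lysine 27, a mark of active promoters and enhancers in many eukaryotes. Acetylated nucleosomes at such sites usually flank a stretch of open DNA, so an active site often gives a peak that spans several nucleosomes. DNMT1 is a maintenance DNA methyltransferase, which copies cytosine methylation onto the new strand after replication.

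The deposited lists held 14986 peaks for dnmt1 mt+, 14990 for WT mt+, 15323 for dnmt1 mt− and 15065 for WT mt−. Read depth is not given in the lists, so where a list has no peak the mark may still be there below the authors' threshold. The lowest −log10 q (the negative logarithm of the false discovery rate the peak caller gave) was 2.17, 2.02, 2.01 and 2.09 in the same order of lists. The shortest peak of each list measured 220 bp, 211 bp, 211 bp and 218 bp. Peaks at exactly this shortest width accounted for 9 members in dnmt1 mt+, 2 in WT mt+, 2 in dnmt1 mt− and 3 in WT mt−. The count does not tell how many members lay near the limits of the lists. The lowest −log10 q of a member peak was 2.18, 2.18, 2.24 and 3.15 in the same order.

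The mean width of the members ran from 225 to 414 bp with a median of 354 bp, against a median of 829 bp over all 13909 regions. In dnmt1 mt+ the member peaks had a median width of 325 bp (quartiles 272 and 368 bp). The medians were 347 bp in WT mt+, 365 bp in dnmt1 mt− and 355 bp in WT mt−. Over all regions the same medians were 817, 828, 839 and 840 bp. The order of the lists was therefore the same among the members, except that dnmt1 mt− stood above WT mt−, and the distance between the lowest and the highest list was larger relative to the width. The dnmt1 mt+ peak was the narrowest of the 4 in 303 members (43.6%) and in 37.3% of all regions. The dnmt1 mt− peak was the widest of the 4 in 255 members (36.7%) and in 31.2% of all regions. The widest of the 4 peaks of a member was a median 1.33 times as wide as the narrowest one, against 1.10 times over all regions.

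**Figure D1:**
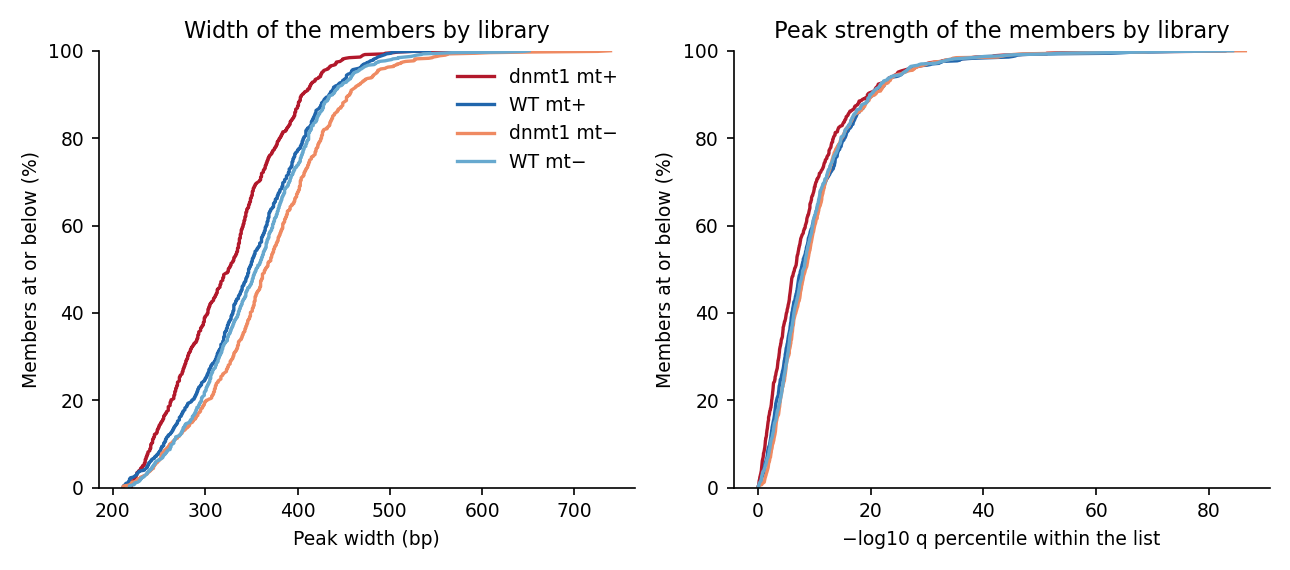
Cumulative share of the 695 members (vertical axes, percent) by peak width in bp (left) and by percentile of −log10 q within the list (right), with 1 line per library. The dnmt1 mt+ line lies left of the others in width, with a median of 325 bp, and the upper quartile of the members lies at percentile 12.0 to 13.7 of −log10 q.

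The narrowest member was on chromosome 16, 7305953 to 7306258, where the peaks were 220 bp wide in dnmt1 mt+, 217 bp in WT mt+, 233 bp in dnmt1 mt− and 229 bp in WT mt−. Its fold enrichment, as the peak caller gave it, was 2.08, 2.56, 2.60 and 2.34 in the same order. Another region began 244 bp from it. The next narrowest lay on chromosome 5, 3367459 to 3367743, with widths of 235, 214, 220 and 231 bp and fold enrichments of 2.09, 1.97, 2.13 and 1.79. The 10 narrowest members were spread over chromosomes 2, 3, 5, 8, 11, 15, 16 and 17, and their 40 peaks were 214 to 270 bp wide. The strongest of these 10 was on chromosome 15, 1107769 to 1108015, with fold enrichments of 3.17 in dnmt1 mt+, 3.90 in WT mt+, 4.11 in dnmt1 mt− and 3.91 in WT mt−. Its peaks ranked at the 12.6th to the 19.5th percentile of −log10 q in their lists, so even this one was a weak peak in each list.

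At the other edge, the last member admitted was on chromosome 12, 4800620 to 4801109, with widths of 313, 470, 471 and 402 bp. The first region left out, on chromosome 13, 2805571 to 2806139, had widths of 524, 369, 427 and 336 bp and the same mean of 414 bp. The threshold thus cut through a continuous range of widths, and the next 5% of regions had a median mean width of 456 bp.

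The narrow peaks were also weak ones. Their median fold enrichment was 2.35 in dnmt1 mt+, 2.59 in WT mt+, 2.69 in dnmt1 mt− and 2.53 in WT mt−. Over all 13909 regions it was 5.54, 5.75, 5.97 and 5.49. Ranked by −log10 q within each list, the median member stood at percentile 6.53 in dnmt1 mt+, 7.71 in WT mt+, 8.50 in dnmt1 mt− and 8.08 in WT mt−. The next 5% by width had median percentiles of 11.9, 13.0, 13.9 and 13.1, the middle 5% of the width order 57.7, 57.1, 59.2 and 59.0, and the widest 5% 84.0, 81.5, 82.3 and 80.9. Strength therefore rose with width through all 4 groups in every list.

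**Figure D2:**
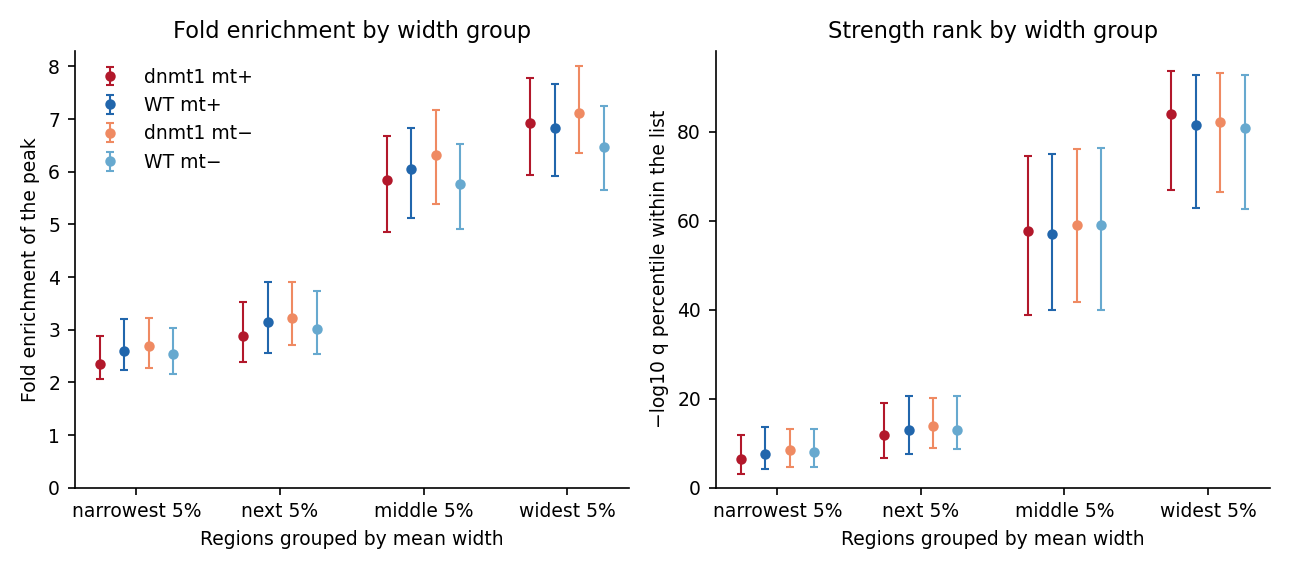
Fold enrichment (left) and percentile of −log10 q within the list (right) for 4 groups of 695 regions ordered by mean width, with 1 colour per library. Points are medians and bars run from the lower to the upper quartile. The members have medians of 2.35 to 2.69 in fold enrichment, and their upper quartiles lie below the lower quartiles of the middle 5% in all 4 libraries.

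A small number of members were narrow and strong. Only 3 of the 695 stood above the median −log10 q of every list, and 19 above the lower quartile of every list. The strongest lay on chromosome 2, 3569806 to 3570204, with peaks 392 bp wide in dnmt1 mt+, 397 bp in WT mt+, 394 bp in dnmt1 mt− and 392 bp in WT mt−. Its fold enrichment was 7.77, 8.06, 8.39 and 7.65, and its −log10 q ranked at percentile 82.9, 82.7, 86.5 and 84.2. This is close to the rank of the median region among the widest 5%, from peaks with a mean width of 394 bp against a median of 1702 bp.

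The other members above every median were both on chromosome 15. The one at 988551 to 988895 had widths of 345, 322, 317 and 336 bp and fold enrichments of 7.44, 7.27, 7.44 and 6.92 (dnmt1 mt+, WT mt+, dnmt1 mt−, WT mt−). The one at 1408330 to 1408689 had widths of 349, 346, 353 and 346 bp and fold enrichments of 6.75, 7.57, 7.47 and 6.65. In these strong members the 4 widths were closer together than in the median member. The 10 strongest members had fold enrichments from 4.48 to 8.39 and widths from 312 to 427 bp. They lay on chromosomes 2, 8, 11, 15, 16 and 17.

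Within the members, width and fold enrichment went together only weakly. Spearman's rho over the 695 regions was 0.30 in dnmt1 mt+, 0.19 in WT mt+, 0.07 in dnmt1 mt− and 0.20 in WT mt−. Over all 13909 regions it was 0.64, 0.58, 0.59 and 0.59. The points of each value share a library and its depth, and a narrow range of width leaves less room for a relation.

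The highest point of the peak, its summit, lay near the middle of the member peaks, at a median of 49.8%, 49.6%, 50.1% and 48.6% of the width in the 4 lists. The outermost of the 4 summits of a member were a median 56 bp apart, against 74 bp over all regions and 115 bp in the widest 5%. Narrow peaks cap this distance, so the smaller value does not show that narrow summits were placed more precisely.

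To see whether a narrow region was narrow in a library that had no part in its choice, the narrowest 5% were chosen anew from 3 lists and looked up in the list left out. Those with a peak in dnmt1 mt+ had a median width percentile there of 4.22 (95% interval 3.74 to 4.62, n = 588). The median percentile was 5.22 in WT mt+ (4.94 to 5.60, n = 659), 5.79 in dnmt1 mt− (5.36 to 6.15, n = 678) and 5.22 in WT mt− (4.87 to 5.60, n = 654). Over all regions it was 51.72, 51.74, 52.53 and 51.93. Peaks in the left-out list were thus narrow as well, in each of the 4 cases.

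Narrow regions were missing from the left-out list more often than other regions, and most often from dnmt1 mt+. Of 708 narrow regions chosen from the other lists, 120 had no peak in dnmt1 mt+, which is 16.9% (exact Clopper-Pearson 95% interval 14.3 to 19.9) against 1.11% of all 14165 regions with 1 peak in each of the other 3 lists. In WT mt+ 43 of 702 had none, 6.13% (4.47 to 8.16) against 0.392% of all regions. In dnmt1 mt− 24 of 702 had none, 3.42% (2.203 to 5.04) against 0.214% of all regions. In WT mt− 50 of 704 had none, 7.102% (5.32 to 9.26) against 0.511% of all regions. These intervals, like all others given for shares, cover counting error only and treat regions as independent.

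The shares dropped steeply with width. In the next 5% by width the shares without a peak were 2.97% in dnmt1 mt+, 0.570% in WT mt+, 0.285% in dnmt1 mt− and 0.710% in WT mt−. In the widest 5% no region was without a peak in any of the 4 lists, which allows a share of up to 0.520% in dnmt1 mt+ and 0.524% in WT mt+. The missing regions were also weaker where they were called. Those absent from dnmt1 mt+ had a median of 3.23 for the mean −log10 q percentile in the other lists, against 7.49 for those that had a peak. For WT mt+ these medians were 3.18 and 7.34, for dnmt1 mt− 4.38 and 6.86, and for WT mt− 3.92 and 7.09.

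The order of the lists matched their lengths only in part. The longest list, dnmt1 mt−, missed the fewest narrow regions. The dnmt1 mt+ and WT mt+ lists were of nearly the same length (14986 and 14990 peaks) but missed 16.9% and 6.13%. When each list was reduced to its 14986 peaks with the highest −log10 q, narrow regions without a peak made up 12.5% in dnmt1 mt+ (0.798% of all regions), 3.30% in WT mt+ (0.230%), 8.84% in dnmt1 mt− (0.692%) and 6.29% in WT mt− (0.479%). The dnmt1 mt+ list still missed the largest share, and the dnmt1 mt− share stood above that of WT mt− instead of below it.

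**Figure D3:**
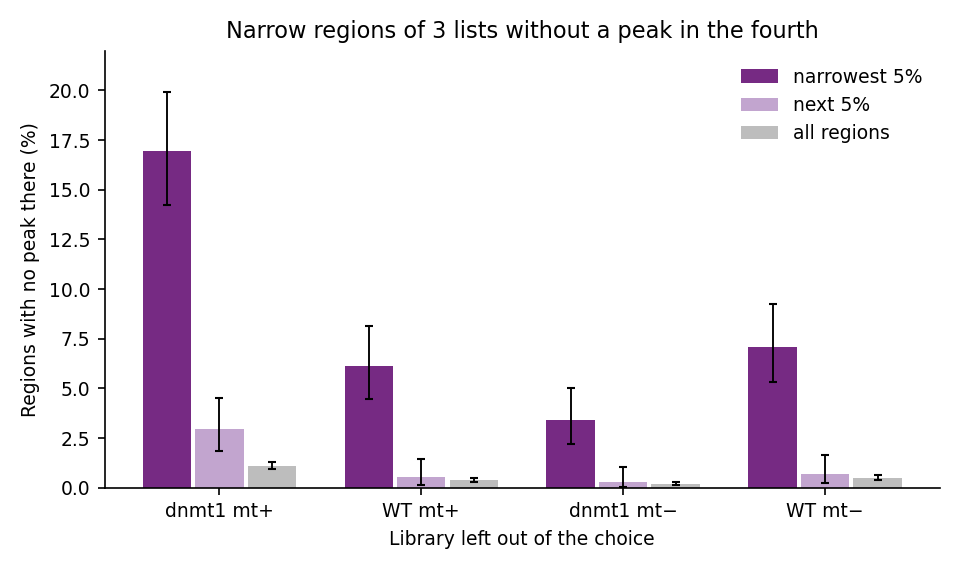
Share of regions (vertical axis, percent) with no peak in the library named on the horizontal axis, after that library was left out of the choice. Bars stand for the narrowest 5%, the next 5% and all regions, and error bars are exact 95% intervals. The narrowest 5% reach 16.9% in dnmt1 mt+ and 3.42% to 7.102% in the other 3 libraries.

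The same was asked by genotype, in a comparison added after the values above were seen. Among the 718 narrowest regions chosen on the 2 WT lists, 145 had no peak in dnmt1 mt+ and 56 none in dnmt1 mt−. In 32 of them (4.46%, interval 3.07 to 6.23) both dnmt1 lists lacked a peak, against 0.257% of all 14370 regions with 1 peak in each WT list. Among the 721 narrowest chosen on the 2 dnmt1 lists, 79 had no peak in WT mt+ and 83 none in WT mt−. In 39 of them (5.41%, interval 3.87 to 7.32) both WT lists lacked a peak, against 1.1% of all 14419 regions with 1 peak in each dnmt1 list. The intervals of the narrow regions overlapped between the genotypes. In the next 5% by width the shares differed more, with 0.279% missing from both dnmt1 lists and 2.36% missing from both WT lists.

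The width of the members in dnmt1 was then set against WT of the same strain. The mean that chose the members contains both widths, so the counts are descriptions. A region was counted as wider or narrower when its width ratio passed 1.5-fold. In mt+, 21 members (3.02%) were wider in dnmt1 than in WT, against 0.611% of all 13909 regions, and 54 members (7.77%) were narrower, against 0.877% of all regions. In mt−, 37 members (5.32%) were wider in dnmt1, against 0.971% of all regions, and 22 members (3.17%) were narrower, against 0.331% of all regions. The balance of wider and narrower members went opposite ways in the 2 strains. Over all regions, which include the members, 85 were wider and 122 narrower in mt+, and 135 wider and 46 narrower in mt−. Without the members, 64 were wider and 68 narrower in mt+, near balance, and 98 were wider and 24 narrower in mt−. The median width ratio of dnmt1 over WT was 0.948 in mt+ and 1.02 in mt− among the members, and 0.988 and 1.00 over all regions.

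The ratio of mt+ over mt− within 1 genotype shows how far a pair of libraries differed without the knockout between them. Within dnmt1, 9 members (1.29%) were wider in mt+ than in mt−, against 0.158% of all regions, and 86 members (12.4%) were narrower, against 1.59% of all regions. Within WT, 23 members (3.31%) were wider in mt+, against 0.439% of all regions, and 31 members (4.46%) were narrower, against 0.755% of all regions. The shares within WT were of the size seen between genotypes in mt−. The pairs share libraries with the ratios of dnmt1 over WT, and those that contain dnmt1 mt+ had the most narrower members. When peaks below a −log10 q of 10 were left out, the shares were lower among the members, chosen anew, and also over all regions. In mt+ 1.36% of members were then wider and 2.11% narrower in dnmt1, against 0.414% and 0.392% of all regions. In mt− 1.96% of members were wider and 0.904% narrower, against 0.610% and 0.234% of all regions. In mt+ the balance over all regions thus no longer leaned to narrower.

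Taken over all members, the width ratios of the 2 strains did not go together. The log2 ratios of the 2 strains had a Pearson's r of 0.01 over the 695 members and 0.15 over all 13909 regions, where the points of each strain share the same pair of libraries. By any amount, 141 members were wider in both dnmt1 lists, 200 were narrower in both, and 354 had opposite or no direction. As shares, 20.3% of members were wider and 28.8% narrower in both, close to the 22.4% and 28.1% of all regions. Past 1.5-fold, 5 of the 21 members wider in dnmt1 in mt+ were also wider in mt−, and 0 of 54 were narrower in both. Over all regions these counts were 38 of 85 and 1 of 122. The share wider in mt− was 5.32% of all members and 0.971% of all regions. Widening in mt+ was thus matched in mt− more often than these shares, though most members wider in mt+ were not matched.

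**Figure D4:**
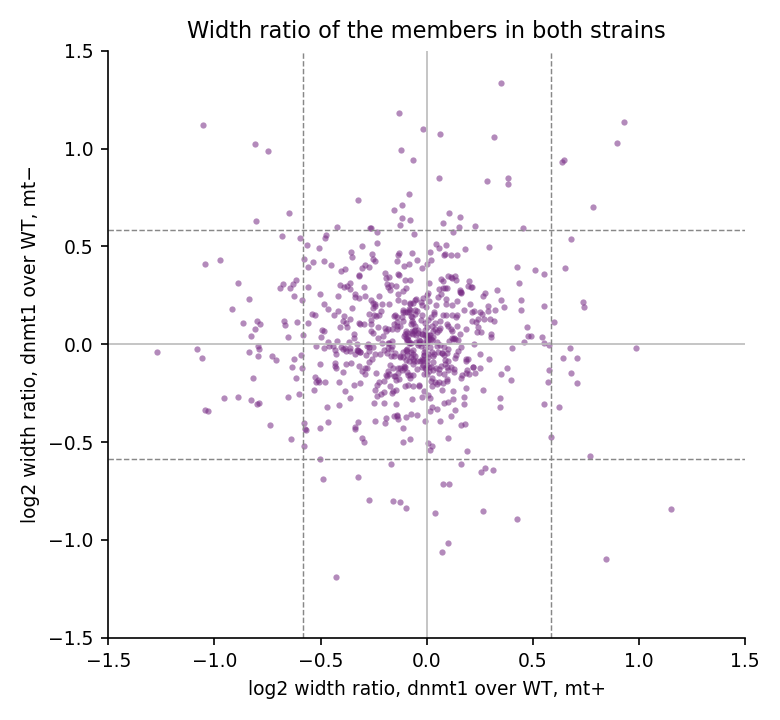
The log2 width ratio of dnmt1 over WT in mt+ (horizontal axis) and in mt− (vertical axis), with 1 point per member. Dashed lines mark 1.5-fold in either direction. The cloud has no slope (Pearson's r of 0.01), and 5 points lie beyond the lines in the upper right corner and 0 in the lower left.

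The member with the largest widening in both strains lay on chromosome 4, 983917 to 984470. Its peaks were 504 bp wide in dnmt1 and 264 bp in WT in mt+, and 554 bp in dnmt1 and 252 bp in WT in mt−, ratios of 1.91 and 2.198. Its −log10 q percentile was 17.96 in dnmt1 and 11.2 in WT in mt+, and 21.0 in dnmt1 and 7.73 in WT in mt−. The next, on chromosome 13, 2067285 to 2067818, measured 403 bp in dnmt1 and 216 bp in WT in mt+, and 457 bp in dnmt1 and 224 bp in WT in mt−. It was among the weakest peaks, at percentiles of 0.220, 0.987, 2.57 and 0.813 (dnmt1 mt+, WT mt+, dnmt1 mt−, WT mt−). The other 3 lay on chromosomes 3, 9 and 13, and all their peaks were at or below percentile 7.32. In 4 of the 5 members wider in both strains, each of the peaks was thus near the lower end of its list.

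No member was narrower past 1.5-fold in both strains. The member nearest to it was on chromosome 6, 7858606 to 7859116, where the peaks were 315 bp wide in dnmt1 and 470 bp in WT in mt+, and 355 bp in dnmt1 and 509 bp in WT in mt−. The corresponding ratios were 0.670 and 0.697. The 5 members nearest to a joint narrowing had ratios from 0.620 to 0.739, and 3 of them were on chromosome 6.

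The members lay closer to other regions than wide regions did. Another region of any kind stood within 1 kb of 330 members, 47.48% (interval 43.7 to 51.3), against 21.5% of all 13909 regions. The share fell with width, with 40.3% in the next 5%, 19.9% in the middle 5% and 10.1% in the widest 5%. A region stood within 1 kb on both sides in 16.7% of members, against 13.4% in the next 5%, 1.44% in the middle 5% and 3.94% of all regions. The median gap to the nearest region was 1158 bp for the members and 2893 bp for all regions. Of the 330 members with a region within 1 kb, 260 (78.8%) had a longer one beside them, against 67.9% in the next 5% and 47.1% of all regions with one that near. Members were chosen as the narrowest, so a longer neighbour is largely fixed by the choice. The nearest region lacked a peak in at least 1 list for 11.7% of members, against 6.61% of all regions.

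A small share of members, though a larger one than of all regions, lay near regions with peaks in both dnmt1 lists and in no WT list. Such a region stood within 50 kb of 44 members (6.33%, interval 4.64 to 8.41), against 3.45% in the next 5% and 4.04% of all regions. The opposite kind, with peaks in both WT lists alone, stood within 50 kb of 31 members (4.46%, interval 3.05 to 6.27). The share was 3.88% in the next 5% and 3.09% of all regions.

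Isolated members existed as well. The one farthest from any other region was on chromosome 15, 5113386 to 5113796, 71912 bp from its nearest neighbour, the largest gap of any of the 13909 regions. Its widths were 367, 397, 382 and 393 bp and its fold enrichments 3.03, 3.76, 3.91 and 3.72 (dnmt1 mt+, WT mt+, dnmt1 mt−, WT mt−). The strongest of the 10 narrowest members, on the same chromosome, had the second largest gap among the members, 24233 bp. The next 2 members lay near the start of a chromosome, on chromosome 14, 1691 to 2116, and on chromosome 6, 8284 to 8579. In all, 20 members (2.88%, interval 1.77 to 4.41) lay within 50 kb of the outermost peak of their chromosome. The share was 2.59% in the next 5% by width and 1.64% of all regions.

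Part of the crowding came from evenly spaced rows of peaks. These rows were noticed in the data and then described, so they carry no test. Regions of any kind with gaps of at most 1000 bp were joined into chains. Of the 695 members, 365 (52.52%) were alone, 167 (24.0%) were in chains of 2 regions, 83 (11.9%) in chains of 3 to 7 and 80 (11.5%) in chains of 8 or more. Of all 13909 regions, 2.53% were in chains of 8 or more. The next 5% by width had a share of 9.93%, the middle 5% 0.144% and the widest 5% 0%. Without the regions in such chains, 40.7% of the remaining 615 members still had another region within 1 kb, against 19.5% of all remaining regions.

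There were 33 chains of 8 or more regions on 13 chromosomes, with 426 regions in all. The distance between the centres of neighbouring regions had a median of 1181 bp and quartiles of 1152.5 and 1211.5 bp. The share of distances within 10% of the median was 87.3% in these chains, against 29.9% in chains of 3 to 7 regions and 24.2% in pairs. The limit on the gap bounds these distances from above. The shorter chains are under the same gap limit, but distances between centres also depend on region width, so they are not bounded alike. With a limit of 1500 bp there were 40 such chains with 91 members, a median distance of 1189 bp and 73.7% of distances within 10% of it. Of the 33 chains, 19 held the 80 members and 14 held none, and the median distance between centres, averaged by chain, was 1184 bp in those with members and 1187 bp in those without.

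The chain with most members was on chromosome 2, 891856 to 910055, where 14 of 16 regions were members. Their centres followed each other at 1186 ± 27.3 bp (SD over the 15 distances). The 16 regions held 15 peaks in dnmt1 mt+ and 16 in each of the other lists, with median fold enrichments of 1.99 in dnmt1 mt+, 2.08 in WT mt+, 2.16 in dnmt1 mt− and 2.09 in WT mt−. Another chain, on chromosome 6, 1969685 to 1989158, held 9 members among 17 regions at 1180 ± 49.3 bp. One on chromosome 3, 989538 to 1007044, held 8 among 15 at 1211 ± 36.2 bp. The spacing was thus alike in these 3 chains, and the spread within each of them was a few percent of it.

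The longest of the 7 chains with at least 5 members lay on chromosome 6, 748801 to 775157, with 23 regions, 10 of them members, at 1182 ± 52.8 bp. Chromosome 6 also carries the mating type locus, but where that locus begins and ends in these coordinates was not determined. Of the 23 regions, 11 had a peak in dnmt1 mt+, 13 in WT mt+, 22 in dnmt1 mt− and 20 in WT mt−. The mt+ libraries of both genotypes thus lacked peaks at regions where the mt− libraries of both genotypes mostly had them. The coordinates also include a separate sequence named mating_type_plus, and whether mt+ reads aligned there instead was not tested. In the other chains with 5 or more members the mt+ shortfall was smaller and mainly in dnmt1 mt+. On chromosome 16, 7340583 to 7352940, 11 regions had 8 peaks in dnmt1 mt+ and 11 in each other list. On chromosome 17, 2296678 to 2307684, 10 regions had 8 peaks in dnmt1 mt+ and 10 in each other list. On chromosome 12, 4798452 to 4805990, all 7 regions had a peak in every list. Their centres followed each other at 1147 ± 93.4 bp, the largest spread of the 7 chains with at least 5 members (8.14% of the mean).

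**Figure D5:**
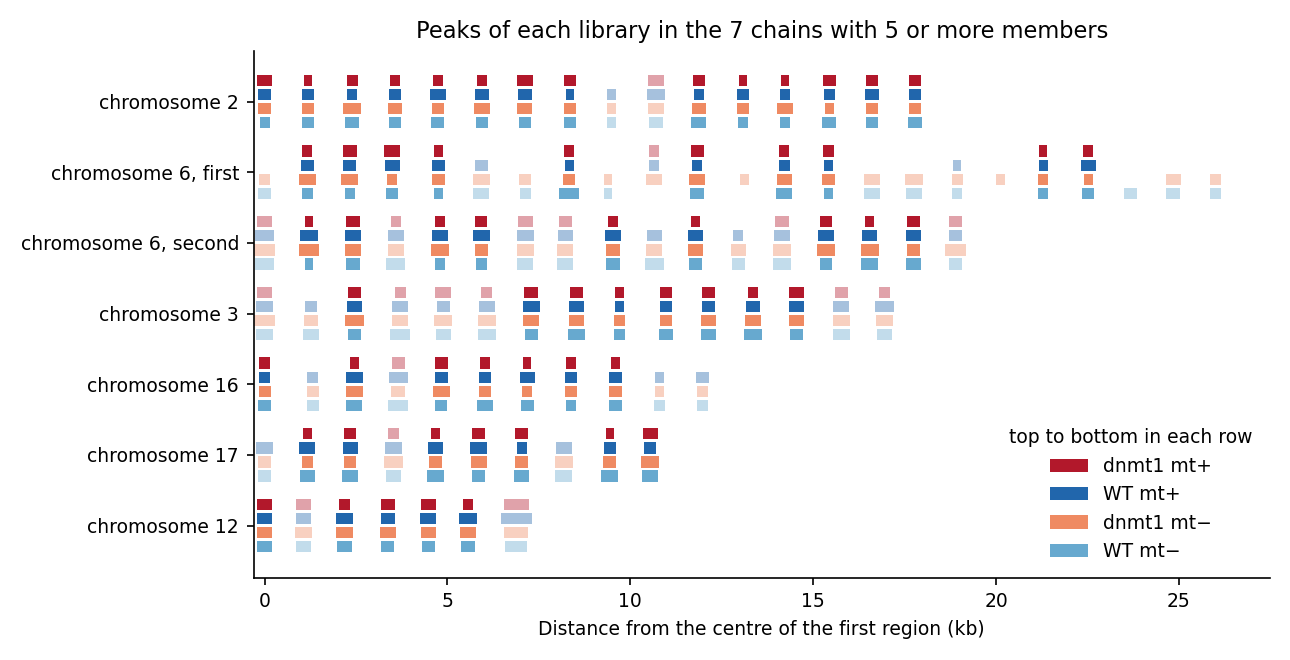
Peaks of each library in the 7 chains with 5 or more members, against the distance in kb from the centre of the first region. Each row holds 4 lines of bars, 1 per library in the order of the legend, with dark bars for members and pale bars for other regions. Bar length equals the peak width, but each bar is centred on its merged region, so alignment between libraries is set by the drawing. The region centres recur at a mean distance of 1147 to 1211 bp in all 7 chains. The first chain on chromosome 6 has fewer bars in the mt+ libraries.

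Over all 33 chains, 359 of the 426 regions had a peak in dnmt1 mt+, 385 in WT mt+, 416 in dnmt1 mt− and 414 in WT mt−. The 80 members in long chains had median widths of 307 bp in dnmt1 mt+, 367.5 bp in WT mt+, 383 bp in dnmt1 mt− and 367.5 bp in WT mt−. The 365 members that stood alone had median widths of 327, 346, 371 and 355 bp. In dnmt1 mt+ the chain members were narrower than the lone ones, and in the other 3 libraries they were wider. Fold enrichment was lower in the chain members in every library, at 2.03, 2.31, 2.27 and 2.17 against 2.43, 2.69, 2.79 and 2.62 in the lone members.

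When the choice was made from 3 lists, 14 of 70 narrow regions in long chains (20.0%, interval 11.4 to 31.3) had no peak in dnmt1 mt+. The counts were 0 of 74 in WT mt+ (up to 4.86%), 0 of 73 in dnmt1 mt− (up to 4.93%) and 1 of 66 in WT mt− (1.52%, up to 8.16%). Outside long chains the shares were 16.6%, 6.85%, 3.82% and 7.68%. The dnmt1 mt+ list thus lacked the largest share both inside and outside the chains. As 638 of its 708 narrow regions lay outside, the outside share lies near the 16.9% over all of them by construction. Whether the shares inside and outside differ was not tested.

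Members made up 10.2% of the 461 regions with 1 peak per list on chromosome 15 (47 regions, interval 7.59 to 13.3) and 8.22% of the 815 on chromosome 17 (67 regions, interval 6.43 to 10.3), where the choice itself fixes 5% over all chromosomes. The lowest shares were 2.27% on chromosome 14 (11 of 484, interval 1.14 to 4.03) and 2.50% on chromosome 13 (16 of 639, interval 1.44 to 4.03). The other 13 chromosomes lay between 3.70% and 6.04%. The share on chromosome 15 was 10.1% without the regions in long chains, and that on chromosome 17 was 7.43%. The median mean width of all regions was 743.5 bp on chromosome 15, the lowest of the 17 chromosomes, and 831 bp on chromosome 17.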

How the data were processed

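H3K27ac ChIP-seq was analysed from 4 deposited peak lists in narrowPeak layout, 1 per library. Per the labels' protocols, cells were fixed with formaldehyde, chromatin was sonicated and libraries were size selected after amplification, with an input that also served for H3K4me1. MACS2 2.2.7.1, Bowtie2 2.4.2, Trim Galore 0.6.7, deepTools 3.5.1 and Picard are named in the submitters' processing notes. The options, the order of steps and the genome build were not given by any source used here. The deposited columns hold, for each peak, the fold enrichment ratio, the summit, the −log10 of the q-value and of the p-value, and the authors' score. These values depend on depth, which the lists do not give, so they were used as values and percentile ranks within a list. The precision that depth would set is therefore unknown. Lists were compared by presence of a peak and by width, and both may also depend on depth.

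Peaks were merged with Python 3.11.15 (numpy 2.4.6, pandas 2.3.3, scipy 1.17.1, matplotlib 3.10.9), and the code was tested on simulated lists with known regions. Coordinates are those of the deposited lists, counted from 1. Intervals for medians are order-statistic intervals and those for shares are exact Clopper-Pearson intervals. The planned annotation and sequence were left out, because the gene table at hand is of another build and no genome of the build of the lists was used here. Strains called set3 in the design text were not analysed here.

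The members, the named regions and the tests were chosen with earlier results of these data known. Named regions are the 10 narrowest members, the 10 with the highest −log10 q percentile in their lowest list, the 5 in each direction with the width ratio farthest from 1 in both strains, the 5 regions on either side of the threshold and the 5 members farthest from any other region. The chains were chosen for naming after their values were seen. Alternatives were another overlap, a −log10 q minimum, lists of equal length, the median width, the narrowest 10%, another width ratio and its centring, and another distance. A choice without dnmt1 mt+, leaving out long chains and a wider chain gap were added after the data were seen.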

Additional observations from a re-analysis of the deposited data

Results flagged for a closer look

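Past 1.5-fold, the count of wider minus narrower members in dnmt1 against WT was -33 in mt+ (21 wider, 54 narrower) and 15 in mt− (37 wider, 22 narrower). The counts went opposite ways in the 2 strains. Over all 13909 regions, members included, 85 were wider and 122 narrower in mt+, and 135 wider and 46 narrower in mt−. Without the members, 64 were wider and 68 narrower in mt+, and 98 wider and 24 narrower in mt−. With 1 library per group the difference between the strains was not tested. Within dnmt1, 86 members (12.4%) were narrower and 9 (1.29%) wider in mt+ than in mt−. Over all regions, which lean the same way, 1.59% were narrower and 0.158% wider. The dnmt1 mt+ list also lacked the most narrow regions chosen without it. The part of that library in the difference was not tested.

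Outside the numbered chromosomes, on unplaced contigs and the sequence named mating_type_plus, 22 of 127 regions (17.3%) with 1 peak per list were as narrow as the members, and 0 of these 22 were on mating_type_plus. There is no control library for this count.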

How the results depend on the processing

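The results were computed again under each alternative, 195 values for 31 results. Of these, 121 stayed within the interval of the reported value (a count within 1.5 times) and 74 moved. The order of the lists did change with a −log10 q minimum, as given below, and with lists of equal length. With equal lengths, the share with no peak was higher in dnmt1 mt− than in WT mt+ and WT mt−. The dnmt1 mt− list then had the lowest left-out width percentile instead of the highest. An overlap of 50% of the shorter peak moved none of 30 values and kept all 695 members. Dividing each width ratio by its median over all regions moved none of 8. No paired analysis was possible because each group had 1 library and so no replicate numbers to pair. Genotypes were set side by side within each strain, and a model of genotype and strain over the 4 libraries was not run. Depth is unknown, so weak peaks near the authors' threshold limit every count of missing peaks and every width ratio between lists. The cause of the changes below was not tested, beyond what each alternative removes or adds.

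Leaving out peaks with a −log10 q below 10 kept 339 members and moved most values. The median width percentile in the left-out list was then 3.65 in dnmt1 mt+, 4.83 in WT mt+, 4.76 in dnmt1 mt− and 4.79 in WT mt−. The share with no peak there was 15.8% in dnmt1 mt+, 4.03% in WT mt+, 5.37% in dnmt1 mt− and 5.51% in WT mt−. The dnmt1 mt− list thus no longer had the smallest share missing or the highest width percentile. Wider and narrower members made up 1.36% and 2.11% for dnmt1 over WT in mt+, 1.96% and 0.904% for dnmt1 over WT in mt−, 0.452% and 3.77% for mt+ over mt− in dnmt1, and 0.753% and 1.20% for mt+ over mt− in WT, against 0.414% and 0.392%, 0.610% and 0.234%, 0.113% and 0.693%, and 0.234% and 0.407% of all regions. The median −log10 q percentiles were 8.22 in dnmt1 mt+, 10.1 in WT mt+, 9.89 in dnmt1 mt− and 9.98 in WT mt−. The outermost summits were 47 bp apart, and 42.3% of members had another region within 1 kb.

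With lists of equal length, 641 members were kept. The left-out width percentile was 4.70 for dnmt1 mt+, 5.68 for WT mt+ and 4.36 for dnmt1 mt−. The share with no peak was 12.5% for dnmt1 mt+, 3.30% for WT mt+ and 8.84% for dnmt1 mt−, while the median −log10 q percentile in dnmt1 mt− was 7.11.

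With the narrowest 10%, the left-out width percentiles were 6.50 in dnmt1 mt+, 8.03 in WT mt+, 8.59 in dnmt1 mt− and 7.97 in WT mt−, and the shares with no peak 9.96%, 3.35%, 1.85% and 3.91%. The −log10 q percentiles were 9.14, 10.3, 11.1 and 10.6. The share narrower for mt+ over mt− in dnmt1 was 9.99%. Members made up 17.6% of the regions of chromosome 15 and 13.3% of those of chromosome 17.

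Ranking by the median width kept 652 members and moved the share narrower for dnmt1 over WT in mt+ to 5.76%. With the lower limit on the width ratio, wider and narrower members made up 7.63% and 21.6% for dnmt1 over WT in mt+, 15.5% and 9.64% for dnmt1 over WT in mt−, 5.32% and 28.1% for mt+ over mt− in dnmt1, and 11.1% and 15.5% for mt+ over mt− in WT, against 1.81% and 3.59%, 2.99% and 1.78%, 0.892% and 5.52%, and 1.70% and 2.94% of all regions. Within 2 kb, 61.2% of members had another region. Of the alternatives added later, the choice without dnmt1 mt+ kept 569 members and gave −log10 q percentiles of 6.30 in WT mt+, 6.90 in dnmt1 mt− and 6.42 in WT mt−. Leaving out long chains gave a share with another region within 1 kb of 40.7%.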
